A study of Aedes aegypti with 5 samples.

Results

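Mucins and a mucin-like peritrophin are among the genes on an *Aedes aegypti* salivary gland oligonucleotide array, and 4 of them were followed through the hours after a blood meal. They are hypothetical MTT rich mucin AE-10854 (gi 94468338), possible mucin AE-922 (gi 94468632), putative mucin AE-329 (gi 94468494) and mucin-like peritrophin AE-466 (gi 94468596). They were picked by their symbols in the deposited report, as 4 of the 433 genes on the array, 12 of which carry mucin or peritrophin in their description. All 4 also stand in the study's own list of regulated genes, which was drawn from these arrays, so their directions and calls here are not independent of that choice. The identifiers did not match the RefSeq table of the AaegL5.0 assembly (0 of 4), and no position in the genome is given.

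Mucins are secreted or membrane proteins that carry many O-linked sugars, which makes them slippery and hydrated, and they coat and protect epithelia and ducts. Peritrophins are chitin-binding proteins, best known from the peritrophic matrix, the chitin and protein sheet that surrounds the meal in the insect midgut. Salivary glands of female mosquitoes also make mucin-type proteins, which are stored with the rest of the saliva and can leave the gland with it during feeding. The role of these 4 products in the gland is not given by the array's descriptions.

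All groups were females of the Higgs white eye strain, starved before the experiment, with no earlier blood meal. The fed females took a full blood meal from a BALB/c mouse, and glands were taken 1 hour, 3 hours, 24 hours or 48 hours later (hours post feeding, hpf). The naïve group was of the same age and starved in the same way, but not fed (unfed). Glands of several females were pooled for each group, and 3 arrays were hybridized per pool, 15 in all, so that p-values measure the spread between arrays of 1 pool and not between mosquitoes. In pooled glands, fewer cells of a type and less RNA per cell cannot be told apart. Values are normalized intensities, in which the mean of the empty spots was subtracted from each spot and the rest divided by that of the reference spots, actin and ribosomal protein S5. On an array, a gene counted as above the empty spots where its own spot was over 2 SD brighter than their mean.

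Between 121 and 162 of the 433 genes lay above the empty spots on an array, with 33 to 64 saturated. All 5 salivary markers checked (apyrase, both long D7 proteins, amylase and alpha-glucosidase) were saturated on every array, and myosin light chain, the muscle marker, was above the empty spots on 0 of 15. The summed level of 2 prophenoloxidase activators, taken for hemocytes, ranged over 0.0986 to 0.268 in unfed glands and over 0.151 to 0.329, 0.194 to 0.591, 0.112 to 0.293 and 0.0785 to 0.41 at 1, 3, 24 and 48 hpf. Genes with midgut keywords (4, of which 2 are described as salivary) summed to 4.27 to 5.19 in unfed glands and to 5.86 to 7.54, 3.65 to 5.31, 4.96 to 5.36 and 5.44 to 6.3 at the same times. The part of other cells in the results was not tested. Ribosomal protein S5 was saturated on 7 of 15 arrays. Actin made up 14.1 to 38.9% of the reference on unfed arrays and 7.05 to 17.6%, 3.21 to 10.7%, 1.76 to 7.63% and 1.56 to 5.9% at 1, 3, 24 and 48 hpf.

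The 2 mucins AE-329 and AE-922 had their highest means in unfed glands and lower ones at all 4 times after feeding, and the mucin-like peritrophin AE-466 had its highest mean at 1 hpf. AE-10854 was dim, and lay above the empty spots on 4 of 15 arrays. The other 3 genes were above the empty spots on 15 of 15 arrays each, and none of the 4 was saturated on any array. AE-10854 counts as detected only through the 1 hpf group, where it is highest.

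**Figure D1:**
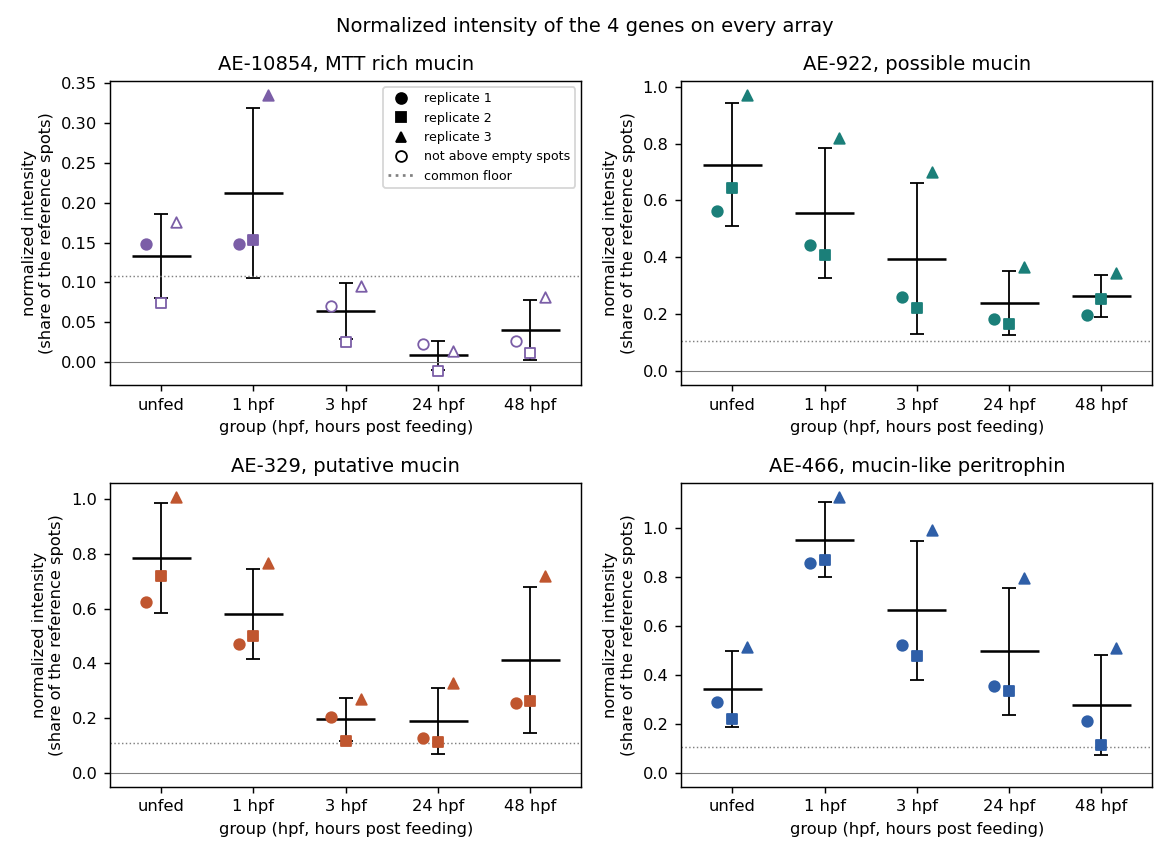
Normalized intensity (vertical axis, share of the reference spots) of the 4 genes in the 5 groups, 1 symbol per array, with the group mean (line) and SD (bar) over 3 arrays. Open symbols are arrays on which the gene was not above the empty spots. AE-922 and AE-329 are highest in unfed glands (means 0.726 and 0.784), AE-466 at 1 hpf (0.953), and replicate 3 is the brightest array in most groups.

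Putative mucin AE-329 was lowest at 3 and 24 hpf. Its normalized intensities were 0.623, 0.72 and 1.01 in unfed glands, 0.471, 0.502 and 0.768 at 1 hpf, 0.204, 0.115 and 0.27 at 3 hpf, 0.128, 0.114 and 0.329 at 24 hpf, and 0.255, 0.262 and 0.721 at 48 hpf. Every array at 3 and 24 hpf lay below every unfed array, while the 1 hpf and 48 hpf arrays overlapped the unfed ones. The means were 0.784 ± 0.201 (SD, n = 3 arrays) in unfed glands and 0.58 ± 0.164, 0.196 ± 0.0777, 0.19 ± 0.12 and 0.413 ± 0.267 at 1, 3, 24 and 48 hpf. From the top the means thus ran unfed, 1 hpf, 48 hpf, 3 hpf and 24 hpf. Arrays of each neighbouring pair in that order overlapped.

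At 3 hpf AE-329 was at 0.25 times its unfed mean, with a log2 ratio of -2.05 (SE 0.50, adjusted p = 0.0863 by limma). At 24 hpf the ratio was 0.243 and the log2 ratio -2.18 (SE 0.50, adjusted p = 0.0735 by limma). Neither passed limma at an adjusted p of 0.05. Same-numbered arrays of the groups deviated together, and both ratios passed in a fit that takes this number as a block (adjusted p = 0.000515 at 3 hpf and 0.000289 at 24 hpf). At 48 hpf the ratio was 0.526 and the log2 ratio -1.08 (SE 0.50, adjusted p = 0.386 by limma, 0.00798 with the block). At 1 hpf the ratio was 0.74 (adjusted p = 1 by limma, 0.37 with the block). The ratio of fed to same-numbered unfed arrays was below 1 on 3 of 3 arrays at each of the 4 times, from 0.159 to 0.328 at 3 hpf and from 0.364 to 0.714 at 48 hpf. The calls of the block fit at 3, 24 and 48 hpf held in each of 6 fits that left out 1 array of the compared groups.

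Between the fed groups, AE-329 stood lower at 3 hpf than at 1 hpf (ratio 0.338, log2 ratio -1.61, SE 0.50, adjusted p = 0.666 by limma, 0.00409 with the block). It was also lower at 24 hpf than at 1 hpf (ratio 0.328, log2 ratio -1.74, SE 0.50, adjusted p = 0.215 by limma, 0.001 with the block). At 48 hpf its mean was 2.17 times that at 24 hpf and 2.1 times that at 3 hpf, and it was higher on 3 of 3 same-numbered arrays in both cases. Those 2 log2 ratios were 1.11 and 0.98 (SE 0.50 each, adjusted p = 1 and 0.881 by limma, 0.0281 and 0.0307 with the block). Each lost its call in 4 of 6 fits that left out 1 array, with adjusted p-values of the block fit up to 0.163 against 24 hpf and 0.147 against 3 hpf. The levels at 24 and 3 hpf did not pass in either fit (ratio 0.971).

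Possible mucin AE-922 was also highest in unfed glands, and lowest at 24 and 48 hpf. Its normalized intensities were 0.562, 0.644 and 0.971 in unfed glands, 0.445, 0.407 and 0.82 at 1 hpf, 0.262, 0.224 and 0.7 at 3 hpf, 0.183, 0.165 and 0.368 at 24 hpf, and 0.196, 0.253 and 0.345 at 48 hpf. All arrays at 24 and 48 hpf lay below all unfed arrays and below all arrays at 1 hpf. The replicate 3 array at 3 hpf lay within the unfed range. The means were 0.726 ± 0.216 (SD, n = 3 arrays) in unfed glands and 0.557 ± 0.228, 0.395 ± 0.265, 0.239 ± 0.112 and 0.265 ± 0.0756 at 1, 3, 24 and 48 hpf. In order from the top they ran unfed, 1, 3, 48 and 24 hpf, and neighbours in that order overlapped.

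AE-922 at 24 hpf had a ratio of 0.329 and a log2 ratio of -1.66 (SE 0.47, adjusted p = 0.152 by limma, 0.000289 with the block). At 48 hpf the ratio was 0.365 and the log2 ratio -1.45 (SE 0.47, adjusted p = 0.286 by limma, 0.00103 with the block). The 3 hpf value, a ratio of 0.545 and a log2 ratio of -1.03 (SE 0.47), had an adjusted p of 0.855 by limma and 0.00641 with the block. All 3 of these calls with the block held in 6 of 6 fits that left out an array. The 1 hpf ratio was 0.768 (adjusted p = 1 by limma, 0.215 with the block), and it passed only where the block was combined with scaling to the array median (log2 ratio -0.90, adjusted p = 0.0304). Under that same combination AE-329 passed at 1 hpf too (log2 ratio -0.93, adjusted p = 0.0174). On 3 of 3 arrays at each time the fed array was lower than its same-numbered unfed one.

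Between fed groups, AE-922 at 24 hpf was at 0.428 times its 1 hpf level (log2 ratio -1.25, SE 0.47, adjusted p = 0.51 by limma, 0.00162 with the block) and at 48 hpf at 0.475 times that level (log2 ratio -1.04, SE 0.47, adjusted p = 0.559 by limma, 0.00548 with the block). The 48 hpf call was lost with scaling to the array median and the block (adjusted p = 0.0523). The other 4 fed pairs of AE-922 passed neither fit, with ratios from 0.604 to 1.11.

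Hypothetical MTT rich mucin AE-10854 was near the empty spots throughout. Its normalized intensities were 0.148, 0.0747 and 0.176 in unfed glands, 0.148, 0.153 and 0.335 at 1 hpf, 0.0701, 0.0258 and 0.0955 at 3 hpf, 0.0228, -0.0113 and 0.014 at 24 hpf, and 0.0267, 0.0112 and 0.0822 at 48 hpf. It was above the empty spots on 3 of 3 arrays at 1 hpf, on 1 of 3 unfed arrays, and on 0 of 3 at each of 3, 24 and 48 hpf. The 1 hpf arrays lay above all arrays of those 3 later groups, and the 24 hpf arrays lay below all unfed arrays. The means were 0.133 ± 0.0524 (SD, n = 3 arrays) in unfed glands, 0.212 ± 0.106 at 1 hpf, and 0.0638 ± 0.0353, 0.0085 ± 0.0177 and 0.0401 ± 0.0373 at 3, 24 and 48 hpf. The last 3 are not well above background and have no order.

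For these dim groups only a bound on the fold can be given, with the brighter group's mean log2 value set against the lowest signal that still counted as above the empty spots on each dim array, or against AE-10854's own value where that was higher. The same was done against the common floor of the fit, and the smaller of both bounds is printed. Relative to 1 hpf, the bound under the main scaling and floor was 1.57-fold lower at 3 hpf, 1.82-fold at 24 hpf and 1.82-fold at 48 hpf (adjusted p = 0.666, 0.264 and 0.238 by limma, 0.0906, 0.0473 and 0.0428 with the block). These bounds are not minima over all settings. With double the floor the log2 ratio was -0.21 at each of the 3 times. With the local background subtracted it was -0.28 at 3 hpf and -0.53 at 24 and 48 hpf. The 24 and 48 hpf calls of the block fit were each lost in 5 of 6 fits without 1 array (adjusted p up to 0.196 and 0.159), and both were lost with S5 alone and the block (adjusted p = 0.136 and 0.123). No bound is given against unfed glands, where 1 of 3 arrays was above the empty spots, and the tests at 24 and 48 hpf did not pass (adjusted p = 0.853 and 0.782 by limma, 0.479 and 0.456 with the block). The 1 hpf mean was 1.59 times the unfed mean, with overlapping arrays (log2 ratio after the floor 0.48, SE 0.27, adjusted p = 0.546 by limma, 0.276 with the block).

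Mucin-like peritrophin AE-466 was highest at 1 hpf and lower at each later time. Its normalized intensities were 0.292, 0.222 and 0.516 in unfed glands, 0.859, 0.87 and 1.13 at 1 hpf, 0.523, 0.479 and 0.992 at 3 hpf, 0.357, 0.336 and 0.798 at 24 hpf, and 0.214, 0.116 and 0.509 at 48 hpf. Every 1 hpf array lay above every array of the unfed, 24 hpf and 48 hpf groups, and every array at 3 and 24 hpf above its same-numbered unfed array. At 48 hpf all 3 were below their same-numbered unfed array. The means were 0.343 ± 0.154 (SD, n = 3 arrays) in unfed glands and 0.953 ± 0.153, 0.665 ± 0.284, 0.497 ± 0.261 and 0.28 ± 0.204 at 1, 3, 24 and 48 hpf. From the top they ran 1, 3 and 24 hpf, unfed and 48 hpf, and neighbours in that order overlapped.

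AE-466 at 1 hpf had a ratio of 2.77 and a log2 ratio of 1.55 (SE 0.53, adjusted p = 0.241 by limma, 0.00147 with the block). The ratio to the same-numbered unfed array was 2.94, 3.92 and 2.19 on the 3 arrays, and the call with the block held in 6 of 6 fits without an array. At 3 hpf the ratio was 1.94 and the log2 ratio 0.96 (SE 0.53, adjusted p = 0.855 by limma, 0.0326 with the block). That call was lost with S5 alone and the block (log2 ratio 0.62, adjusted p = 0.178), with scaling to the array median and the block (0.58, adjusted p = 0.222), and in 5 of 6 fits without 1 array. The ratio at 24 hpf was 1.45 and that at 48 hpf 0.814, and neither passed either fit (adjusted p = 1 each by limma, 0.272 and 0.335 with the block). With S5 alone and the block, the 48 hpf level passed as lower (log2 ratio -0.83, adjusted p = 0.0351).

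Among the fed groups, AE-466 at 48 hpf was at 0.294 times its 1 hpf level, with a log2 ratio of -2.02 (SE 0.53, adjusted p = 0.135 by limma, 0.00101 with the block). Without the 48 hpf replicate 3 array that contrast passed limma without the block as well (adjusted p = 0.0205). Against 3 hpf the 48 hpf ratio was 0.421 (log2 ratio -1.43, SE 0.53, adjusted p = 0.494 by limma, 0.00362 with the block). Both calls with the block held in 6 of 6 fits without an array. The 24 hpf level was at 0.522 times that at 1 hpf (log2 ratio -1.05, SE 0.53, adjusted p = 0.844 by limma, 0.0223 with the block), and the 48 hpf level at 0.563 times that at 24 hpf (log2 ratio -0.97, SE 0.53, adjusted p = 1 by limma, 0.0413 with the block). These 2 calls were lost in 4 of 6 and 5 of 6 fits without 1 array.

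**Figure D2:**
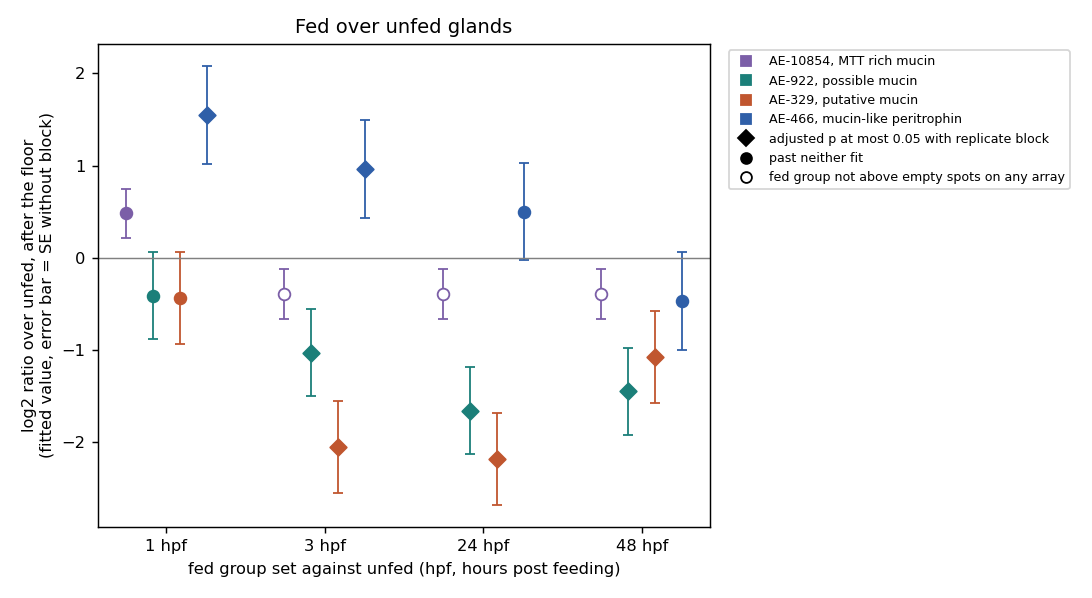
Fitted log2 ratio of each fed group over unfed after the common floor (vertical axis), with the SE of the fit without the block as bars, for the 4 genes at 4 times. Diamonds passed with the replicate block, circles passed neither fit, and open circles are groups in which AE-10854 was above the empty spots on 0 of 3 arrays. AE-329 lies at -2.05 and -2.18 at 3 and 24 hpf, and AE-466 at 1.55 at 1 hpf.

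Deposited averages give another direction for AE-466 at 48 hpf. The authors' average is 0.51 at 48 hpf and 0.22 in unfed glands, while the means of the 3 arrays in the same table are 0.28 and 0.343. Each of these 2 averages equals, to within 0.005, the value of 1 array, replicate 3 at 48 hpf and replicate 2 in unfed glands. The ratio of the deposited averages is 2.32, and that of the array means is 0.814. Of 2175 deposited averages 12 differed by more than 0.001 from the mean of their 3 arrays, in 5 genes, and AE-466 is the only one of the 4 among them. The paper also measured mucin-like peritrophin by quantitative RT-PCR, as one of several transcripts picked at random. It reports a high correlation of the RT-PCR fold differences with those of the array. RT-PCR values by time were not at hand here.

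In the raw scans AE-466 was dimmer than its surroundings. Its local background, the membrane signal around the spot, was brighter than the spot on 15 of 15 arrays, with a spot to local background ratio from 0.65 to 0.939. That held for 29 of the 435 gene spots, and for 17 of the 168 genes detected in some group, that is brighter than the empty spots on 2 or 3 of its arrays. For AE-922 the local background exceeded the spot on 3 of 3 arrays at each of 3, 24 and 48 hpf, and on 0 of 3 in unfed glands and at 1 hpf. AE-329 had this on 3 of 3 arrays at 3 hpf, on 1 of 3 at 24 hpf and on 0 of 3 elsewhere. The normalized intensity does not subtract the local background.

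**Figure D3:**
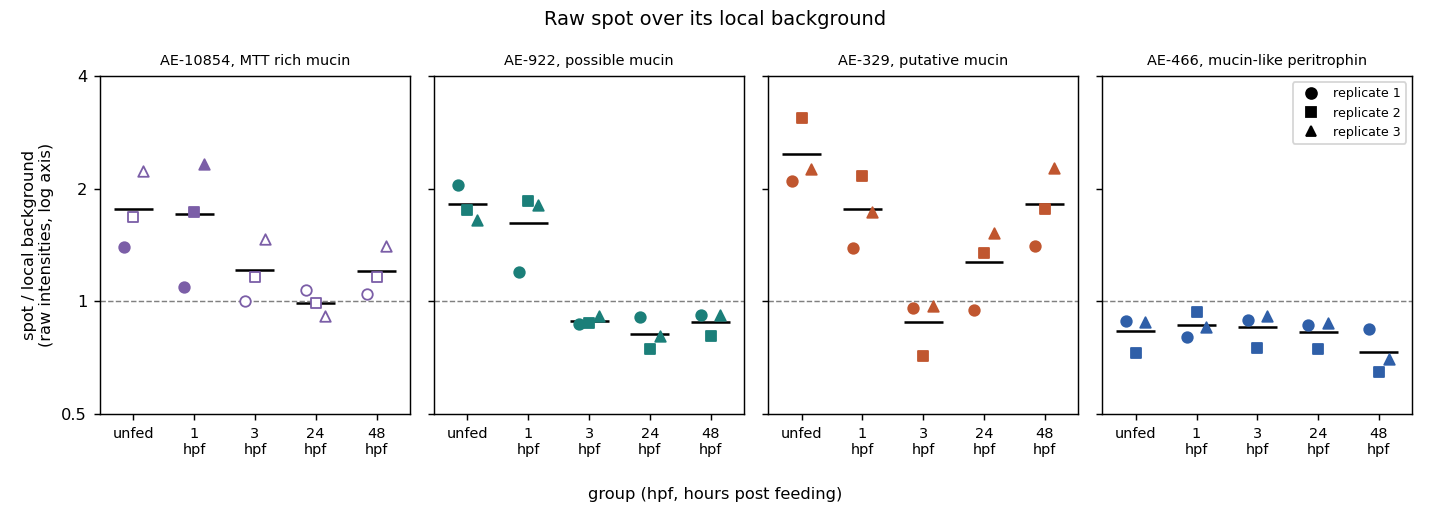
Ratio of the raw spot to its local background (vertical log axis) for the 4 genes, 1 symbol per array, with the group mean as a line. Open symbols are arrays on which the gene was not above the empty spots. AE-466 stays below 1 in all groups (0.65 to 0.939), and AE-922 lies below 1 at 3, 24 and 48 hpf.

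For AE-466, spot and local background moved together. At 1 hpf its raw spot was 1.54, 2.2 and 1.43 times that of the same-numbered unfed array, and its local background 1.69, 1.71 and 1.47 times. The median local background over all gene spots was 0.923, 0.965 and 0.915 times the unfed one on these arrays, and the reference was 0.551, 0.677 and 0.704 times. At 48 hpf the AE-466 spot was 0.595, 0.545 and 0.637 times the unfed one and its local background 0.625, 0.612 and 0.795 times. With the spot minus the local background in place of the spot, AE-466 lay at the floor on all arrays and gave no ratio. At 24 hpf the AE-329 spot was 0.273, 0.194 and 0.253 times the unfed one and its local background 0.603, 0.445 and 0.374 times. The AE-922 spot was 0.358, 0.264 and 0.286 times and its local background 0.809, 0.619 and 0.585 times. On these arrays the median local background over all gene spots was 0.886, 1.01 and 0.725 times the unfed one. The part of the local background in the results of AE-466, AE-329 and AE-922 was not tested. With the local background subtracted, the AE-329 log2 ratio at 24 hpf was -2.20, with an adjusted p of 0.256 by limma. On 1 of 3 arrays at 24 hpf the local background exceeded the AE-329 spot, so that this value depends in part on the floor. At 3 hpf the AE-329 log2 ratio was -2.49, and AE-922 gave -1.99 at each of 3, 24 and 48 hpf. In those groups the local background exceeded the spot on 3 of 3 arrays, so that no fold is measured there.

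**Figure D4:**
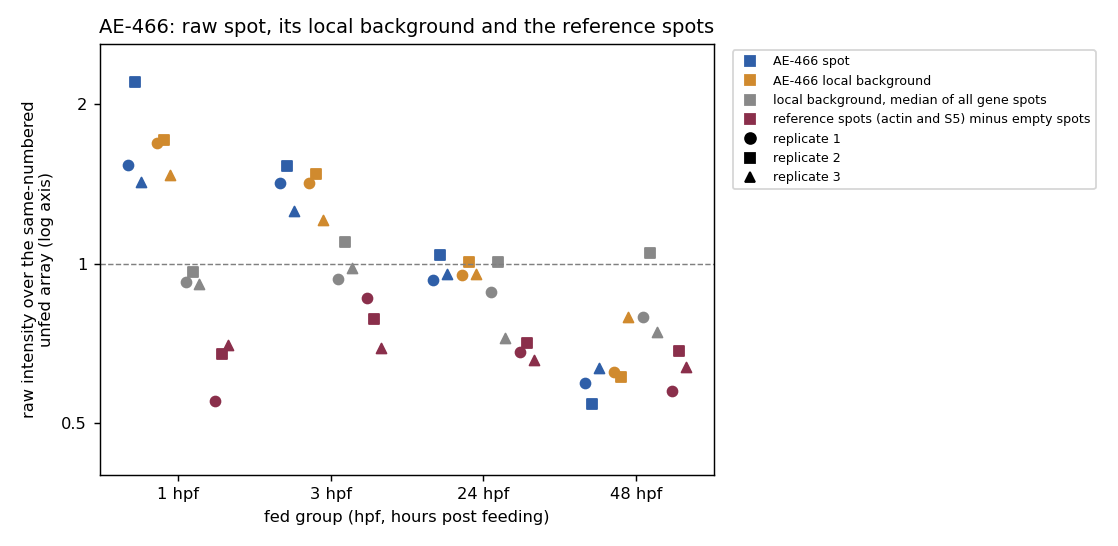
Raw intensity on fed arrays over the same-numbered unfed array (vertical log axis) at 4 times, for the AE-466 spot, its local background, the median local background of all gene spots, and the reference spots after subtraction of the empty spots. The AE-466 spot and its local background lie above 1 at 1 hpf and below 1 at 48 hpf, while the reference lies between 0.551 and 0.864 at all times.

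Over the 4 genes, 0 of the 16 tests against unfed passed limma at an adjusted p of 0.05, while at an unadjusted p of 0.05 there were 5 lower and 1 higher. The 1 higher was at 1 hpf, where 15.3% of all genes were higher at that p. The lower ones were 2 at 3 hpf, 2 at 24 hpf and 1 at 48 hpf, against 1.85%, 3.47% and 2.31% of all genes. Of all 432 genes tested, 1.16%, 1.16%, 0.926% and 0.231% passed at 1, 3, 24 and 48 hpf, in either direction. With the block, 6 of the 16 were lower and 2 higher. At 1 hpf 1 of 4 was higher with the block, as were 15.5% of all genes. At 3 hpf 2 of 4 were lower, against 4.17% of all genes, and 1 of 4 was higher, against 13.9%. At 24 hpf 2 of 4 were lower, against 6.25% of all genes, and at 48 hpf 2 of 4, against 7.64%. All genes called with the block were among the 168 detected ones, to which the 4 genes belong, so the shares among detected genes are larger. Of these 168, 67 were higher at 1 hpf and 60 at 3 hpf. At 3, 24 and 48 hpf 18, 27 and 33 of them were lower. The methods call genes by an unadjusted p of 0.05 with a ratio of at least 2-fold or at most 0.5-fold, and name no test. By a two-sample test of equal variances 6 of the 16 passed those limits, and 0 passed after Benjamini-Hochberg adjustment. The study's list, which holds all 4 genes, was drawn from these arrays by those limits. Counts of the 4 genes that pass are thus not independent of that choice. The 6 were 1, 1, 3 and 1 of the 4 genes at 1, 3, 24 and 48 hpf, against 3.70%, 1.39%, 5.79% and 5.79% of all genes, and AE-10854 at 24 hpf, which was not above the empty spots, is among them.

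Groups that did not overlap were counted as well. All AE-466 arrays at 1 hpf were higher than all unfed arrays, as held for 4.86% of all genes. At 3 hpf 1 of the 4 genes was lower without overlap, against 2.55% of all genes. At 24 hpf it was 3 of 4, against 10.9%, and at 48 hpf 1 of 4, against 13.7%. Of the 47 and 59 genes behind these last 2 shares, 18 and 18 were among the 168 detected genes. The 3 of 4 at 24 hpf include AE-10854, which was above the empty spots on 0 of 3 arrays there and on 1 of 3 unfed arrays.

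The median log2 ratio over the 4 genes was 0.03, -0.71, -1.02 and -0.77 at 1, 3, 24 and 48 hpf. Over all 432 genes, most of which were at the floor in both groups, it was 0.00 at each time, and over the 168 detected genes it was 0.47, 0.36, 0.13 and 0.00. Where S5 alone served as the reference, the log2 ratios of the detected genes moved by a median of -0.27, -0.35, -0.38 and -0.39 at these times, and with the array median by -0.49, -0.39, -0.36 and -0.24. Under these 2 scalings AE-466 at 1 hpf was at a log2 ratio of 1.28 and 1.06, and AE-329 at 24 hpf at -2.53 and -2.54. With the block, both kept their call under both scalings (adjusted p = 0.0064 and 0.0174 for AE-466, 2.79e-05 and 2.17e-05 for AE-329).

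Among the fed groups, 0 of the 24 tests of the 4 genes passed limma, with 9 lower and 1 higher at an unadjusted p of 0.05. The lower ones were 2, 3 and 3 of 4 at 3, 24 and 48 hpf over 1 hpf, against 2.55%, 5.79% and 7.64% of all genes, and 1 at 48 over 3 hpf, against 4.63%. Each of the counts over 1 hpf includes AE-10854, which counts as detected only through that group. The higher one was at 48 over 24 hpf, against 2.08%. Of all 432 genes, 0.231% passed for 3 over 1 hpf, 0.231% for 24 over 1 hpf, 0% for 48 over 1 hpf, 0.231% for 24 over 3 hpf, 0.463% for 48 over 3 hpf and 0% for 48 over 24 hpf. With the block 10 of the 24 were lower and 2 higher. All 4 genes were lower at 24 hpf than at 1 hpf, against 8.10% of all genes, and 3 of 4 at 48 hpf than at 1 hpf, against 9.26%. Both counts include AE-10854, which is measured only through its 1 hpf level and whose calls were lost with either other scaling and the block (adjusted p = 0.136 and 0.123 with S5 alone, 0.435 and 0.456 with the array median). Without it they were 3 of 3 and 2 of 3. The 35 and 40 genes behind the shares of 8.10% and 9.26% were all among the 168 detected genes. For 3 over 1 hpf 1 of 4 was lower, against 1.85%, and for 24 over 3 hpf 0 of 4 passed, against 6.71% in either direction. At 48 hpf, AE-466 was lower and AE-329 higher than at 3 hpf, where 6.94% of all genes were lower and 1.39% higher. The same 2 genes were lower and higher than at 24 hpf, against 3.70% and 2.55% of all genes.

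Among the other mucins on the array, AE-979 was lowest at 48 hpf and AET-6286 at 24 hpf. The array holds 8 further mucins and 1 chitinase-like protein, and 6 of these 9 genes were detected. None of their 36 tests against unfed passed limma (2 lower and 3 higher at an unadjusted p of 0.05), while the block fit called 2 lower and 5 higher. The lower ones are AE-979 at 48 hpf and AET-6286 at 24 hpf, at times when 7.64% and 6.25% of all genes were lower with the block. Of the 5 higher with the block, 4 are AE-165, saturated on 15 of 15 arrays, and 1 is AET-6286 at 1 hpf, where 15.5% of all genes were higher. By limma at the unadjusted p, the 2 lower are the same 2 tests, at times when 2.31% and 3.47% of all genes were lower. The 3 higher are all the saturated AE-165, at 1, 24 and 48 hpf, when 66, 19 and 48 of 432 genes were higher. Salivary mucin AE-979 had intensities of 0.32, 0.43 and 0.987 at 48 hpf and 1.25, 1.35 and 1.18 in unfed glands. Its ratio at 48 hpf was 0.46 with no overlap (log2 ratio -1.29, SE 0.38, adjusted p = 0.224 by limma, 0.00653 with the block). At 1, 3 and 24 hpf AE-979 had ratios of 1.15, 1.15 and 0.77 and passed neither fit. The 24 hpf level did pass with S5 alone and the block (adjusted p = 0.0468) and with the array median and the block (adjusted p = 0.0143). AE-979 was saturated on 1 unfed array and on 1 array at 3 hpf. Its 48 hpf level was also lower than those at 1 and 3 hpf (ratios 0.399 and 0.4, log2 ratios -1.49 and -1.48, SE 0.38 each). Adjusted p-values were 0.131 and 0.115 by limma, and 0.00671 and 0.00729 with the block. Both calls with the block held in 6 of 6 fits without an array, and 9.26% and 6.94% of all genes were lower there with the block.

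Possible mucin AET-6286 was lower at 24 hpf than in every other group. Its intensities were 0.133, 0.0676 and 0.224 at 24 hpf, against 0.347, 0.295 and 0.599 in unfed glands. The ratio at 24 hpf was 0.342 with no overlap (log2 ratio -1.42, SE 0.48, adjusted p = 0.324 by limma, 2.82e-05 with the block). Over 1 and 3 hpf its 24 hpf ratios were 0.245 and 0.315 (log2 ratios -1.89 and -1.50, SE 0.48 each). Adjusted p-values were 0.174 and 0.572 by limma, and 3.55e-06 and 3.36e-05 with the block. Both calls with the block held in 6 of 6 fits without an array. With the block, 8.10% of all genes were lower over 1 hpf, and 6.71% passed in either direction over 3 hpf. At 48 hpf the intensities were 0.343, 0.347 and 0.838, a ratio of 3.6 to 24 hpf (log2 ratio 1.65, SE 0.48, adjusted p = 0.304 by limma, 1.32e-05 with the block). At 1 hpf its ratio to unfed was 1.4 (adjusted p = 1 by limma, 0.00981 with the block, held in 4 of 6 fits without an array). That call was lost with S5 alone and the block (log2 ratio 0.20, adjusted p = 0.396) and with scaling to the array median and the block (-0.02, adjusted p = 1), while AE-979 at 48 hpf and AET-6286 at 24 hpf kept theirs under both.

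Possible mucin AE-200, proline rich mucin AE-262 and salivary mucin AEA-1204 passed neither fit against unfed, with ratios from 0.81 to 1.23, from 1.65 to 1.86 and from 0.855 to 1.33 over the 4 times. Under other scalings with the block, AEA-1204 at 48 hpf (ratio 0.855) did pass, with S5 alone (adjusted p = 0.0385) and with the array median (adjusted p = 0.0487). AE-200 at 3 hpf (ratio 0.824) passed with the array median and the block (adjusted p = 0.0384), but not with S5 alone and the block (adjusted p = 0.142). The local background exceeded the AE-262 spot on 15 of 15 arrays. AEA-1204 was at 0.645 times its 24 hpf level at 48 hpf (adjusted p = 1 by limma, 0.0413 with the block, held in 1 of 6 fits without an array), and this call was lost with S5 alone and the block (adjusted p = 0.0583). Putative salivary mucin AE-165 was saturated throughout, so that no fold is measured, and its 4 calls as higher with the block are ratios of a saturated spot to the reference.

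**Figure D5:**
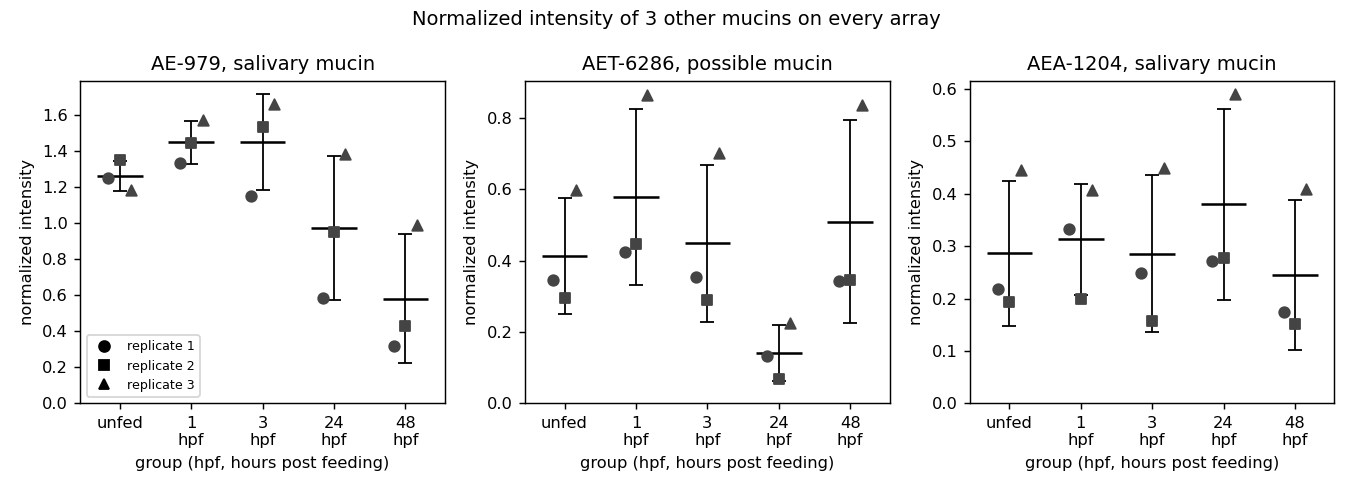
Normalized intensity (vertical axis) of AE-979, AET-6286 and AEA-1204 in the 5 groups, 1 symbol per array, with the mean (line) and SD (bar) over 3 arrays. AE-979 is lowest at 48 hpf (0.32 to 0.987), and AET-6286 at 24 hpf (0.0676 to 0.224).

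The genes whose 5 group means ran most like those of each member were listed by Pearson correlation among 137 detected genes that were not saturated on every array, as a description over 5 groups scaled by the same reference. AE-329 was closest to polyadenylate-binding protein AET-265, which binds the tails of messenger RNAs (r = 0.963), heat shock cognate 70 protein AET-2544, a chaperone (0.895), and AE-196, similar to the *Anopheles gambiae* gSG8 salivary protein (0.891). AE-922 was closest to AE-196 (r = 0.987), putative salivary secreted peptide AE-428 (0.984) and again AET-2544 (0.941). The mean of AE-196 was 0.466 in unfed glands and 0.395, 0.325, 0.239 and 0.29 at 1, 3, 24 and 48 hpf.

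AE-466 was closest to putative adenosine deaminase AF466610, an enzyme that removes adenosine (r = 0.977), with means of 1.56 in unfed glands and 2.43, 1.93, 1.62 and 1.17 at 1, 3, 24 and 48 hpf. Opsin AET-596, a light-sensing receptor (r = 0.966) and putative secreted protein AF466597 (0.965) followed. AF466610 was saturated on 10 of 15 arrays and AF466597 on 8 of 15, and apyrase, saturated on every array, had means of 1.58 in unfed glands and 2.52, 2.01, 2.3 and 2.42 at 1, 3, 24 and 48 hpf. None is named for AE-10854, whose means at 3, 24 and 48 hpf are at the floor. Between members, AE-329 and AE-922 had an r of 0.834 over the 5 means, and AE-466 had one of 0.241 with AE-922 and of -0.106 with AE-329.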

How the data were processed

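Glands of 5 groups were hybridized to a nylon oligonucleotide array of 480 positions, 3 arrays per RNA pool. The deposited raw sheet holds the intensity of each spot and of its local background, and the report sheet the authors' normalized intensities, which were recomputed from the 22 empty spots and positions 411 (actin) and 424 (ribosomal protein S5) to within 0.000129. The methods name RpL5 as the reference. The series matrix score, deposited by the authors, is the group average over unfed, linear and not centred, as found by setting it against the report sheet (medians 1, 1.245, 1.165, 0.985 and 0.825 for unfed, 1, 3, 24 and 48 hpf). The authors' own ratio and p-value lists were not used.

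The 3 spots of 1 gene were averaged. Values were raised to a floor of 0.1077 (the median over arrays of 2 SD of the empty spots over the reference), and limma 3.58.1 (R 4.3.3) was run on the log2 values of the deposited intensities, all 5 groups in 1 model. Two-sided p-values were adjusted (Benjamini-Hochberg) over 432 genes per contrast, S5 left out, and an adjusted p of 0.05 or less passed. Spots at 60000 or more were saturated. Deviations from the group means correlated at 0.351 to 0.824 in the 30 same-numbered pairs, over 168 genes, so the number was also fitted as a block; the sources do not say what it marks. Other scalings, floors, filters, tests and left-out arrays were tried. The number of arrays limits the precision.

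The 4 genes and the lists were chosen with earlier results of these data known. Named are the 4 genes, the detected ones among other mucins, peritrophins and chitin-related genes, and, per member, the 3 detected genes, not saturated on every array, with the most similar group means.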

Additional observations from a re-analysis of the deposited data

Results flagged for a closer look

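Mucin-like peritrophin AE-466 was above its same-numbered unfed array on 3 of 3 arrays at 1, 3 and 24 hpf and below it on 3 of 3 arrays at 48 hpf. The differences from unfed at 24 and 48 hpf passed neither fit (adjusted p = 1 each by limma, 0.272 and 0.335 with the replicate block), and the one at 48 hpf changed sign without 48 hpf replicate 2 (log2 ratio 0.03). The log2 ratio of 48 hpf was -2.02 over 1 hpf, -1.43 over 3 hpf and -0.97 over 24 hpf (adjusted p = 0.135, 0.494 and 1 by limma, 0.00101, 0.00362 and 0.0413 with the replicate block). The smallest of the differences at 48 hpf was on replicate 3, at 0.986 times the unfed array.

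Mucin AE-10854 lay at or above its same-numbered unfed array on 3 of 3 arrays at 1 hpf and below it on 3 of 3 at 3, 24 and 48 hpf. The log2 ratios of these later groups over 1 hpf were -0.86, -0.86 and -0.86, the same value because all 3 groups lie at the floor (adjusted p = 0.666, 0.264 and 0.238 by limma, 0.0906, 0.0473 and 0.0428 with the block). On replicate 1 the 1 hpf and unfed values were both 0.148.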

How the results depend on the processing

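Of 37 log2 ratios of the 4 genes (the 3 with both groups at the floor left out), 635 of 650 values under the alternatives kept their direction, and 0 calls could be lost, since none passed limma. With the replicate block the passing tests against unfed numbered 8 for the members (AE-922 -1.03, -1.66 and -1.45 and AE-329 -2.05, -2.18 and -1.08 at 3, 24 and 48 hpf, AE-466 1.55 and 0.96 at 1 and 3 hpf) and 7 for the other genes, and between fed groups 12 and 6. With quantile normalization they numbered 5 (AE-922 -1.11, -1.31 and -1.07 at 3, 24 and 48 hpf, AE-329 -2.04 and -1.86 at 3 and 24 hpf), 5, 7 and 6. With detected genes only, which tests fewer genes, they numbered 3 (AE-922 -1.66 at 24 hpf, AE-329 -2.05 and -2.18 at 3 and 24 hpf), 0, 1 and 3. By a two-sample test without adjustment they numbered 6 (AE-10854 -3.97 at 24 hpf, AE-922 -1.60 and -1.46 at 24 and 48 hpf, AE-329 -2.0 and -2.04 at 3 and 24 hpf, AE-466 1.47 at 1 hpf), 1, 4 and 4. The series matrix gave AE-10854 at -1.06, -4.06 and -1.74 at 3, 24 and 48 hpf. These last values of AE-10854 and the -3.97 have no floor, and it was above the empty spots on 0 of 3 arrays at each of these times, so that no fold is measured by them.

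Leaving out 1 array gave 0 to 2 and 0 to 1 passing tests for the members against unfed and between fed groups, and 0 to 1 and 0 to 2 for the other genes. AE-329 at 24 hpf ran from -2.66 to -1.90 and passed without 24 hpf replicate 3 (adjusted p = 0.0219). For quantile normalization, detected genes only, left-out arrays and the two-sample test between fed groups, the share of all genes passing is not given. Those counts therefore cannot be read as particular to these genes. AE-10854 against 1 hpf is among the tests between fed groups that passed with the block, quantile normalization and the two-sample test.

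Directions turned for AE-466 at 48 hpf in the series matrix (1.21 over unfed, 0.26 over 3 hpf, 0.55 over 24 hpf), whose averages hold single arrays, and without 48 hpf replicate 2 (-1.03 to 0.03 over unfed). They turned for AE-922 at 48 over 3 hpf with quantile normalization (0.04) and without an array (-0.73 to 0.09), and at 48 over 24 hpf without an array (-0.01 to 0.57). AE-329 turned at 48 over 1 hpf with quantile normalization (0.15), and at 24 over 3 hpf with double the floor (0.10), local background (0.28), quantile normalization (0.18) and without an array (-0.61 to 0.15). With the array median and the block, AET-6286 at 1 hpf (-0.02 over unfed) and the saturated AE-165 at 3 hpf (-0.01) turned. The cause was not tested. Fits of the block without 1 array, and with other scalings, were chosen after seeing the data.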
